A study of Oryza sativa with 58 samples.

Results

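Young panicles were compared with young leaves of 3 rice varieties in 12 RNA-Seq libraries, chosen as the panicle and young leaf libraries among the 24 of a 58-library series whose files list genes by MH63 identifiers. The varieties were MH63 (Minghui 63), ZS97 (ZhenShan97) and Nip (spelled Nipponare in the labels). Each variety gave 2 panicle and 2 young leaf libraries, so that 6 panicle and 6 young leaf libraries were compared, and its 2 root and 2 mature leaf libraries serve below as levels and in 1 alternative fit. Panicles of 1.5 to 4.5 cm were cut from field plants in Wuhan that had been transplanted as seedlings of about 20 days, and mature leaves came from the same kind of field plants. Young leaves were taken from plants that were 2 weeks old and grown hydroponically in a phytotron with 14 h of light at 32 °C and 10 h of dark at 28 °C, and roots were cut from seedlings of the same phytotron that were 1 week from planting on wet filter paper. All groups are untreated plants with no transgene named in their labels. Tissue, plant age and place of growth therefore changed together between the groups and cannot be told apart in the comparison. The source label of the ZS97 panicle libraries reads panicle leaf, while their title and tissue label read panicle.

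A young rice panicle of this length is the inflorescence at the stage at which branches have been laid down and spikelets and their floral organs form from meristems, which divide quickly and carry little chlorophyll. A young leaf is a source organ in the making, in which mesophyll cells fill with chloroplasts and build up the proteins that capture light and fix carbon. Floral and cell division genes are known to be active in the former and photosynthesis genes in the latter. The tables used here pair the MH63 identifiers with no gene symbol, so genes are given by identifier with no name or role, and the labelled tissues were not checked against marker genes. In whole organs, fewer cells of a type and less RNA per cell cannot be told apart.

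The measure was FPKM, fragments scaled to gene length and library size, which carries no read count. Library sums ran from 458020 to 635094 FPKM in panicle and from 516680 to 761333 FPKM in young leaf, and the Pearson correlation of log2(FPKM + 1) between the 2 replicates of a group was between 0.921 and 0.971. The sequencing depth relative to MH63 young leaf replicate 1, read from the steps between low values, ran from 0.176 to 1.63 in panicle and from 0.231 to 1.08 in young leaf. The lowest depth was that of ZS97 panicle replicate 1, and the 4 Nip libraries lay between 0.231 and 0.493.

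Young leaf held more genes above 1 FPKM and put more of its transcript total into its most abundant genes. Between 17603 and 18052 genes were above 1 FPKM in the 6 panicle libraries (mean 17781 ± 175, SD, n = 6) and between 18035 and 19514 in the 6 young leaf libraries (mean 18914 ± 573, SD, n = 6), a difference of -1134 genes. This difference was larger than the spread between the libraries in an exact permutation test, two-sided, with tissues exchanged within each variety (p = 0.0185, smallest possible p = 0.00926). The ranges overlapped in 1 place, where the highest panicle library, of Nip, lay above the lowest young leaf library, also of Nip. With the libraries rescaled to equal FPKM sums, the difference shrank to -714 genes (exact permutation p = 0.0556). The 100 highest genes of a library took between 16.8% and 23.6% of its FPKM total in panicle and between 21.7% and 29.5% in young leaf, a mean difference of -5.71 percentage points (exact permutation test, two-sided, p = 0.00926). These ranges overlapped, but within each variety both young leaf libraries lay above both panicle libraries.

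Of 23898 genes tested, 5773 were called different between panicle and young leaf (24.2% of the genes tested; limma with variety as a block, at an adjusted p of less than 0.05 and more than 1.5 of change in log2). Panicle was higher for 2060 genes (8.62%) and young leaf for 3713 (15.5%). With libraries rescaled to equal FPKM sums, which moved the median log2 fold change of all genes from -0.03 to 0.19, the split was 3126 genes higher in panicle against 3635 higher in young leaf, so the size of the excess on the young leaf side depends on how the libraries are scaled. Most of the large changes lay on the young leaf side under the deposited scale. The log2 fold change exceeded 5 in size for 224 genes higher in young leaf and for 23 higher in panicle, and the median size was 2.52 and 2.13, counting genes listed at 0 in a whole tissue, whose values depend on the pseudocount. In panicle, 7 genes called higher there reached a mean of 1000 FPKM, and in young leaf 31 did.

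**Figure D1:**
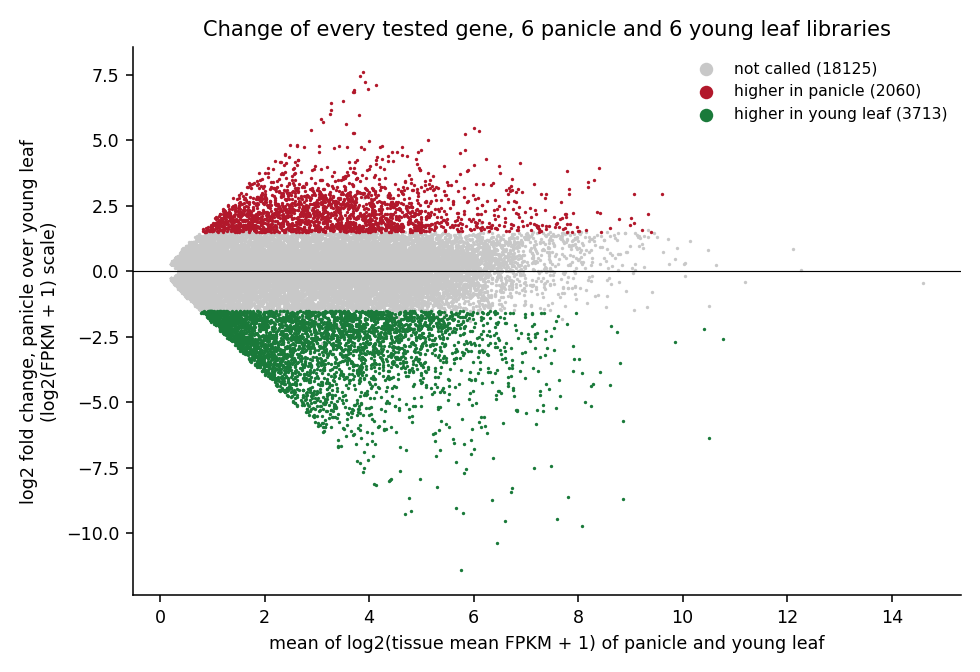
Change of each of the 23898 tested genes (log2 fold change of panicle over young leaf on the log2(FPKM + 1) scale, vertical axis) against its mean level in both tissues (horizontal axis, log2). Each point is a gene, in red if called higher in panicle (2060), in green if called higher in young leaf (3713) and in grey otherwise. The highest point, in red, lies at 7.60, and the green points reach farther from 0 than the red ones.

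The 6 panicle values did not overlap the 6 young leaf values for 8707 of the 23898 genes (36.4%), with panicle above for 4036 (16.9%) and young leaf above for 4671 (19.5%). Among the called genes this held for 1811 of those higher in panicle (87.9%) and 3143 of those higher in young leaf (84.6%). The calls were made on the same values, so these shares follow in part from how the genes were chosen. Genes above 1 FPKM in all 6 libraries of a tissue and listed at 0 in all 6 of the other numbered 15 in panicle, with a median level of 5.03 FPKM, and 103 in young leaf, with a median of 11.98 FPKM. Such a gene was at 10 FPKM or more in 1 case in panicle (MH11g0547000, mean 12.9 FPKM) and in 57 cases in young leaf. If the other tissue was allowed up to 1 FPKM in each library, 321 genes were found on the panicle side and 912 on the young leaf side. Without ZS97 panicle replicate 1, the library of lowest depth, the counts of genes listed at 0 in the other tissue were 22 and 106. An exact 0 in such files can be a failed estimate, and ZS97 panicle replicate 1 listed 37055 genes at 0 against 32444 to 33750 in the other panicle libraries.

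Genes higher in panicle with the largest change were near 0 in young leaf of every variety. Named are the 12 with the largest log2 fold change among 1005 genes (4.21% of those tested) that had at least 10 FPKM in panicle, were called in each variety and showed no overlap. Across these 12 genes the lowest value of any panicle library was 40.1 FPKM and the highest of any young leaf library 1.62 FPKM. This gap and the levels near 0 follow in part from how the genes were chosen. MH08g0528700 on chromosome 8 (chromosomes as the identifiers number them) changed most. Its panicle values were 177 and 209.7 FPKM in MH63, 238 and 250.1 in ZS97 and 180.0 and 182 in Nip, and its young leaf values were 0 and 0 FPKM in MH63, 0 and 0 in ZS97 and 0.382 and 0 in Nip (log2 fold change 7.60, SE 0.13, adjusted p = 5.46e-11). All 12 root and mature leaf libraries listed this gene at 0. MH07g0016900 had panicle values of 199.7 and 221 FPKM in MH63, 181 and 179 in ZS97 and 177 and 168 in Nip and young leaf values of 0 and 0.0779 FPKM in MH63, 0 and 0.0813 in ZS97 and 0 and 0.230 in Nip (log2 fold change 7.47, SE 0.11, adjusted p = 1.97e-11). Its 6 panicle values lay within a narrow range, whereas those of MH12g0413500 differed from variety to variety. The panicle values of the latter were 356 and 449.8 FPKM in MH63, 139.5 and 238 in ZS97 and 51.5 and 54.0 in Nip, and its young leaf values were 0 and 0 FPKM in MH63, 0 and 0 in ZS97 and 0 and 0.325 in Nip (log2 fold change 7.24, SE 0.41, adjusted p = 7.90e-08), and its change differed between the varieties (adjusted p = 0.00503, limma).

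The panicle values of MH03g0114800 were 149 and 181 FPKM in MH63, 185 and 215 in ZS97 and 158 and 173 in Nip, and its young leaf values were 0.259 and 0.119 FPKM in MH63, 0.703 and 0.373 in ZS97 and 0.466 and 0.548 in Nip (log2 fold change 6.98, SE 0.11, adjusted p = 3.83e-11). In mature leaf the gene was at 0 and 0.790 FPKM in MH63, 32.2 and 36.5 in ZS97 and 11.2 and 10.7 in Nip, so that it was expressed there in ZS97 and Nip and below 1 FPKM in both MH63 libraries, while root stayed at 0 to 0.263 FPKM. Root was at or below 1 FPKM in all 6 libraries for each of the 12 genes, and mature leaf for 10 of them. The exceptions were MH03g0114800 and MH05g0131300, the latter with mature leaf values of 0 and 3.19 FPKM in MH63, 0 and 0 in ZS97 and 3.85 and 0 in Nip. Its panicle values were 151.1 and 157 FPKM in MH63, 253 and 293.7 in ZS97 and 225 and 116 in Nip. MH07g0039100 and MH07g0039300, with MH07g0039200 between them in identifier order on chromosome 7, were both among the 12. The panicle values of MH07g0039300 were 183 and 113 FPKM in MH63, 75.0 and 134 in ZS97 and 160.5 and 157 in Nip, and those of MH07g0039100 were at least 66.9 FPKM, against at most 1.01 and 0.146 FPKM in young leaf. The remaining genes, MH12g0403500, MH09g0414200, MH06g0081500, MH02g0546200 and MH03g0625500, had log2 fold changes from 6.02 to 6.93, with the largest adjusted p of the 12 at 7.90e-08.

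Genes higher in young leaf spanned larger changes and reached up to 26727 FPKM in a library. The same rule was met by 1834 genes (7.67% of those tested), of which the 12 with the largest log2 fold change are named. For 4 of them all 6 panicle libraries were listed at 0, and no fold change is given for these. MH12g0344600 on chromosome 12 was one of them, with young leaf values of 4769 and 3537 FPKM in MH63, 2308 and 2906 in ZS97 and 1377 and 2701 in Nip (adjusted p = 5.46e-11, limma). The field-grown mature leaves held 12239.5 and 11233 FPKM in MH63, 10811 and 10925 in ZS97 and 10591 and 11096 in Nip, and it was listed at 0 in 5 of 6 root libraries. MH05g0105700 was listed at 0 in every panicle library as well, with young leaf values of 356 and 644 FPKM in MH63, 17629 and 26727 in ZS97 and 156 and 331 in Nip (adjusted p = 1.72e-06). ZS97 thus stood far above the other varieties in young leaf, and it did so in mature leaf too, at 339 and 234 FPKM in MH63, 45074 and 39594 in ZS97 and 2424 and 1995 in Nip. MH02g0109900 and MH01g0805800 were the other 2 genes at 0 throughout panicle, with 322 to 1109 FPKM and 144 to 1366 FPKM in young leaf.

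For the 8 genes with a panicle value above 0, the log2 fold change was between 8.65 and 9.72 in size. MH01g0012600 had young leaf values of 5567 and 4669 FPKM in MH63, 10958 and 9481 in ZS97 and 3944 and 5936 in Nip and panicle values of 2.66 and 3.76 FPKM in MH63, 31.005 and 14.3 in ZS97 and 4.19 and 2.89 in Nip (log2 fold change -9.72, SE 0.27, adjusted p = 8.17e-10). MH01g0225600 had young leaf values of 4822 and 4088 FPKM in MH63, 5154 and 5587 in ZS97 and 3616 and 5548 in Nip and panicle values of 3.90 and 2.75 FPKM in MH63, 6.91 and 8.10 in ZS97 and 15.98 and 3.14 in Nip (log2 fold change -9.46, SE 0.31, adjusted p = 2.13e-09). Both genes were thus high in young leaf of all 3 varieties, with 601 to 2803 FPKM and 5587 to 10309 FPKM in mature leaf. MH11g0661400 differed from the rest in that its root mean was above its young leaf mean in each variety. Root and young leaf means were 2559 and 535 FPKM in MH63, 3617 and 3410 in ZS97 and 2039 and 565 in Nip. The libraries ran from 2011 to 4094 FPKM in root, 331 to 4224 FPKM in young leaf and 122 to 543 FPKM in mature leaf. Mature leaf was above 100 FPKM in all 6 libraries for 11 of the 12 genes, and MH02g0109900 was the exception, listed at 0 in 3 mature leaf libraries. MH11g0110500 was the only one of the 12 with a panicle value above 100 FPKM. Its panicle values were 0 and 0 FPKM in MH63, 200.5 and 12.3 in ZS97 and 0 and 38.0 in Nip, and the one high value belonged to ZS97 panicle replicate 1, the library of lowest depth. The remaining genes, MH01g0811900, MH08g0492700 and MH12g0034200, are shown with all libraries in the plot of the named genes.

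**Figure D2:**
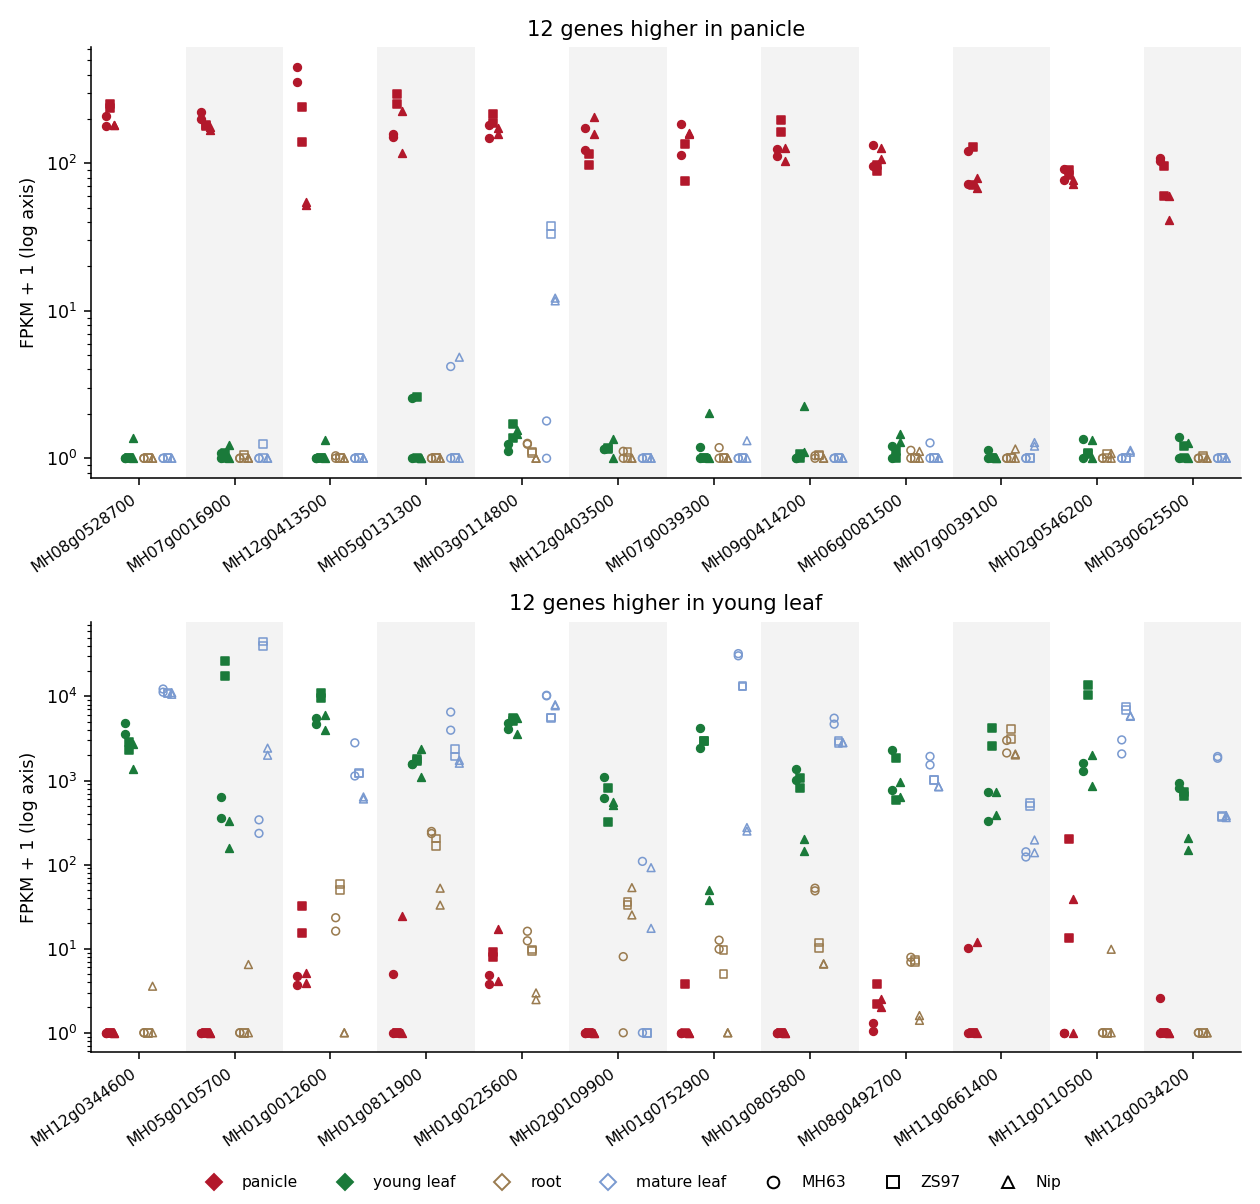
FPKM + 1 (vertical log axis) of the 12 genes higher in panicle (top) and the 12 higher in young leaf (bottom) in each of 24 libraries. Each symbol is 1 library, coloured by tissue and shaped by variety, with filled symbols for the tissues compared and open ones for root and mature leaf. In the top panel panicle lies at 40.1 FPKM or above and young leaf at 1.62 or below, which follows in part from how the genes were chosen.

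Levels in mature leaf, which was not part of the comparison, separated the 2 directions, and median levels in root over the 3 varieties did not. The 1296 genes called higher in panicle in all 3 varieties (5.42% of those tested) had a median of 0.395 FPKM in mature leaf and of 5.77 FPKM in root, against 5.29 and 5.99 FPKM over all genes tested. Mature leaf means were at or below 1 FPKM in all 3 varieties for 741 of these genes (57.2%, against 22.98% of all genes tested), and root means for 237 (18.3%, against 18.5%). Root means were above 1 FPKM in all 3 varieties for 933 of them (72.0%, against 65.3% of all genes tested). The 2268 genes called higher in young leaf in all 3 varieties (9.49%) had a median of 21.7 FPKM in mature leaf and of 5.64 FPKM in root. Mature leaf means of the latter were above 1 FPKM in all 3 varieties for 1848 genes (81.5%, against 59.4% of all genes tested), and root means for 1499 (66.1%, against 65.3%). Mature leaf thus lay on the side of young leaf in both groups of genes, and the root medians over the varieties were near that of all genes tested. Within varieties, the root medians of the panicle and young leaf groups were 6.20 and 6.49 FPKM in MH63 and 5.51 and 6.03 in ZS97. In Nip they were 5.25 and 3.40 FPKM, against 4.76 FPKM over all genes tested. Mature leaves came from field plants, as the panicles did, while young leaves and roots came from the phytotron. Whether tissue, age or place of growth goes with these levels was not tested. The FPKM sums of the mature leaf libraries, from 995120 to 1512107, were larger than those of the other tissues, and their part in these levels was not tested.

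**Figure D3:**
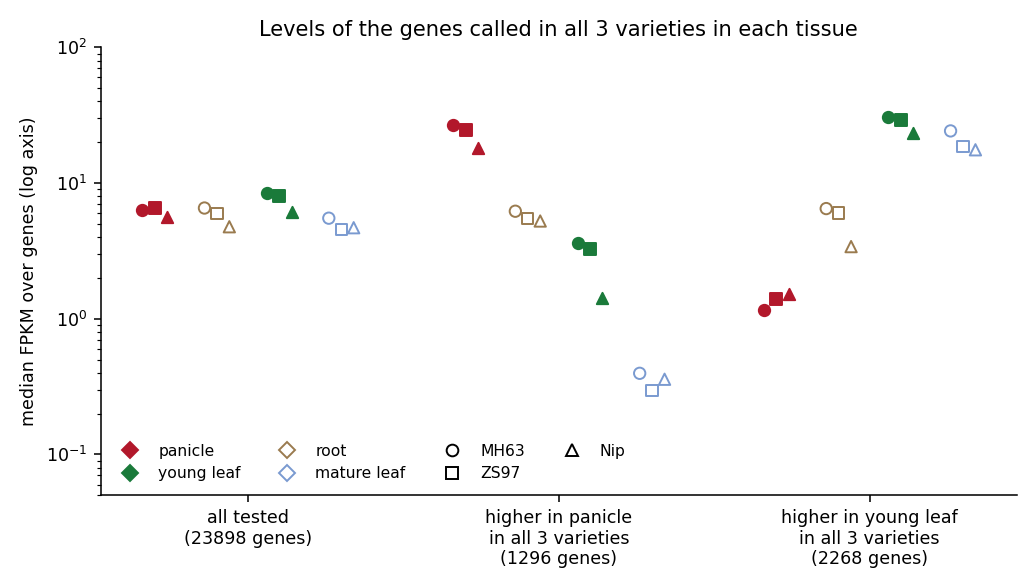
Median FPKM over genes (vertical log axis) in each tissue and variety for all 23898 genes tested, the 1296 genes called higher in panicle in all 3 varieties and the 2268 called higher in young leaf in all 3. Each symbol is the median of the means of 2 libraries. The panicle and young leaf medians of the called groups follow from how the genes were chosen, while in mature leaf the groups lie at 0.395 and 21.7 FPKM over the varieties.

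The genes called in all 3 varieties made up a large share of the young leaf transcript total and a smaller one of the panicle total. The 2268 genes higher in young leaf took between 27.1% and 34.6% of the FPKM of a young leaf library and between 1.98% and 2.56% of that of a panicle library. The 1296 genes higher in panicle took between 11.4% and 15.3% of a panicle library and between 1.13% and 2.08% of a young leaf library. These shares describe the genes on the libraries that chose them.

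Of the 5 most abundant transcripts of the panicle, 1 was called different from young leaf. MH03g0552100 had the highest mean over 3 varieties in both tissues, although in MH63 panicle MH05g0326100 was higher (mean 7141 against 5640 FPKM). Its panicle values were 5625 and 5656 FPKM in MH63, 46366 and 32827 in ZS97 and 22377 and 15811 in Nip, and its young leaf values were 7490.4 and 6322 FPKM in MH63, 49924 and 34719 in ZS97 and 28880.5 and 46849.7 in Nip (log2 fold change -0.45, SE 0.37, adjusted p = 0.318). MH63 lay far below the other varieties in both tissues, and the tissues overlapped. Of the other genes among the 5 highest in panicle, MH05g0326100, MH06g0672200 and MH06g0708300 had log2 fold changes of 0.85, 0.04 and -0.41 and were not called. The change of MH05g0326100 (adjusted p = 0.022) stayed below the 1.5 required, and after quantile normalization it was 1.85 and was called (adjusted p = 0.000156, limma). The called gene was MH05g0018300, which was higher in panicle. It had panicle values of 2563 and 2256 FPKM in MH63, 2697 and 3798 in ZS97 and 973 and 843 in Nip and young leaf values of 434 and 360.3 FPKM in MH63, 329 and 267 in ZS97 and 107 and 149.8 in Nip (log2 fold change 2.95, SE 0.18, adjusted p = 1.29e-07), with no overlap in any variety. Of the 5 highest genes in young leaf, MH05g0105700, MH01g0012600 and MH11g0110500 belonged to the 12 described above and MH03g0552100 and MH06g0672200 to the highest in panicle.

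A steady level between panicle and young leaf, with a log2 fold change below 0.25 in size over all varieties and below 0.5 within each, was found for 2646 genes (11.1%). The most abundant of these were MH06g0672200, MH08g0355400, MH06g0062600, MH01g0760300 and MH06g0667900. MH06g0062600 had panicle values of 527 and 499 FPKM in MH63, 534 and 524 in ZS97 and 477 and 475 in Nip and young leaf values of 504 and 710.2 FPKM in MH63, 543 and 654 in ZS97 and 327 and 534 in Nip (log2 fold change -0.07, SE 0.16, adjusted p = 0.717). MH01g0760300 had panicle values of 732 and 524 FPKM in MH63, 634 and 619 in ZS97 and 431 and 328 in Nip and young leaf values of 593 and 518 FPKM in MH63, 596 and 602 in ZS97 and 282 and 426 in Nip (log2 fold change 0.11, SE 0.14, adjusted p = 0.508). The libraries of both tissues overlapped for these genes, and Nip was the lowest variety for MH01g0760300 in both tissues. In mature leaf, MH01g0760300 reached 773 to 1921 FPKM and MH06g0667900 1105 to 1498 FPKM, so that a steady level here does not extend to every organ.

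MH02g0167000, MH07g0100900 and MH08g0085800 were included as genes shown as examples in the study, and the first differed between the tissues. Its panicle values were 0.998 and 1.51 FPKM in MH63, 1.38 and 1.75 in ZS97 and 1.57 and 1.20 in Nip and its young leaf values 6.15 and 8.26 FPKM in MH63, 4.57 and 8.16 in ZS97 and 3.04 and 4.95 in Nip (log2 fold change -1.46, SE 0.20, adjusted p = 7.81e-05). All young leaf values lay above all panicle values, but the change stayed below the 1.5 required for a call. MH07g0100900 was at 56.5 to 65.8 FPKM in panicle and 54.6 to 82.7 FPKM in young leaf (log2 fold change -0.16, SE 0.11, adjusted p = 0.212). MH08g0085800 was at 5.998 to 34.4 FPKM and 8.45 to 38.4 FPKM (log2 fold change -0.21, SE 0.16, adjusted p = 0.286), with ZS97 the lowest variety in both tissues.

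Within single varieties, 6188 genes were called in MH63 (25.9%), 6039 in ZS97 (25.3%) and 5787 in Nip (24.2%). The genes higher in panicle numbered 2014 in MH63 (8.43%), 2167 in ZS97 (9.07%) and 2531 in Nip (10.6%), and those higher in young leaf 4174 (17.5%), 3872 (16.2%) and 3256 (13.6%). After quantile normalization the split was 2930 against 3428 in MH63 and 2791 against 3223 in ZS97, and with equal FPKM sums it was 3207 against 4001 in MH63 and 3656 against 3369 in Nip, where panicle then held the larger number. The same direction was called in all 3 varieties for 3564 genes (14.9%). MH63 and ZS97 shared 4857 calls of the same direction, which are 78.5% of the calls in MH63 and 80.4% of those in ZS97. Nip shared 4063 with MH63 (65.7% of the calls in MH63 and 70.2% of those in Nip) and 3897 with ZS97 (64.5% and 67.3%). Across the 23898 genes, which are not independent replicates, the Pearson correlation of the log2 fold changes was 0.892 between MH63 and ZS97, 0.793 between MH63 and Nip and 0.768 between ZS97 and Nip. A call in 1 variety alone was made for 825 genes in MH63, 840 in ZS97 and 1373 in Nip, out of the 23898 tested. Of these, 226, 404 and 805 were higher in panicle and 599, 436 and 568 higher in young leaf. Such a gene may have fallen just short of the cutoffs elsewhere. A call in 1 variety alone is therefore no test of a difference between varieties.

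**Figure D4:**
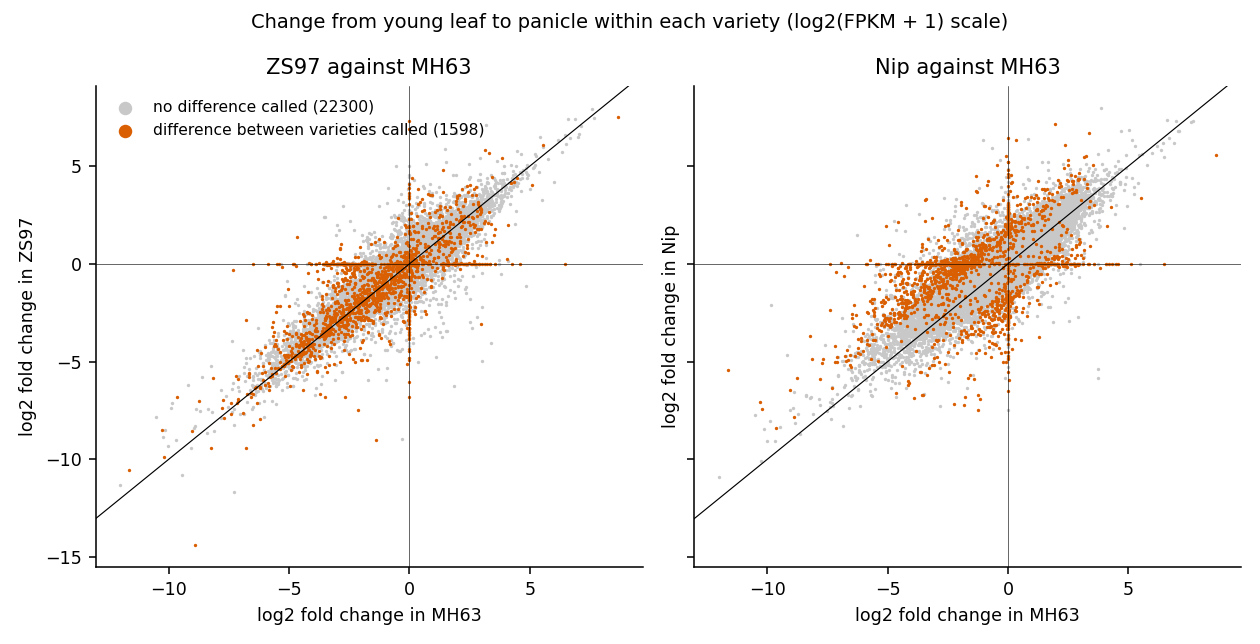
Log2 fold change of panicle over young leaf in ZS97 (left) and Nip (right) against that in MH63, on the log2(FPKM + 1) scale. Each point is 1 of 23898 genes, in orange for the 1598 whose change was called different between varieties, and the line marks equal change. Points on the horizontal line at 0 include genes listed at 0 in all libraries of that variety, and the correlation is 0.892 for ZS97 and 0.793 for Nip.

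The change from young leaf to panicle itself differed between the varieties for 1598 genes (6.69%; limma F test of the interaction, adjusted p below 0.05 and a spread of more than 1.5 between the log2 fold changes), and for 2821 with all 24 libraries in the fit. For 48.7% of the 1598 genes the value farthest from the other two was a more positive change in Nip, and for 20.2% a more negative one. For MH63 these were 4.69% and 11.6%, and for ZS97 7.01% and 7.82%. In the direct test of Nip against MH63 and ZS97, 1482 genes were called (6.2%), with the change more positive in Nip for 1067 (4.46%) and more negative for 415 (1.74%). After quantile normalization these were 761 and 600. MH63 against ZS97 gave 263 genes (1.1%), with the change more positive in MH63 for 104 (0.435%) and more negative for 159 (0.665%). This count was 562 without ZS97 panicle replicate 2, 511 with all 24 libraries in the fit and 163 with a mean above 5 FPKM required. The 4 Nip libraries were of low depth, and their median level over the genes tested was 6.08 FPKM in young leaf against 8.50 in MH63 and 8.03 in ZS97. Whether the Nip libraries were quantified and scaled together with those of MH63 and ZS97 is not known. The part of depth, level and scaling in the counts was not tested. All varieties were listed by MH63 genes, so that Nip or ZS97 reads that do not match these genes would be missing. Of the 1598 genes, 210 (13.1%) were listed at 0 in all 4 Nip libraries, 218 (13.6%) in all 4 of ZS97 and 8.01% in all 4 of MH63, against 5.63%, 5.94% and 4.49% of all genes tested. Such a gene passed the filter through the other varieties and has a change of 0 in its own. The larger shares among the 1598 thus follow in part from how the genes were called. Whether reads that do not match have a part in them was not tested.

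MH08g0121600 was high in young leaf of Nip and MH63 and low in that of ZS97. Young leaf held 22.3 and 28.3 FPKM in MH63, 0.905 and 0.643 in ZS97 and 230.4 and 170.3 in Nip, and panicle held 0.0177 and 0.0455 FPKM in MH63, 3.99 and 3.15 in ZS97 and 1.05 and 1.04 in Nip. The log2 fold change was -4.66 (SE 0.22) in MH63, 1.36 (SE 0.22) in ZS97 and -6.61 (SE 0.22) in Nip, and the difference between the varieties was called (adjusted p = 3.98e-05, limma). ZS97 kept this low level in mature leaf, where the values were 51.4 and 47.0 FPKM in MH63, 0.0880 and 0.131 in ZS97 and 72.9 and 70.9 in Nip. Over all varieties the gene was called higher in young leaf (adjusted p = 0.0165), a call that was lost without MH63 (adjusted p = 0.155) and without Nip (adjusted p = 0.228). MH09g0150000 was read in young leaf of MH63 and ZS97, and its 6 panicle libraries were listed at 0. Its young leaf values were 225 and 126 FPKM in MH63, 183 and 230.5 in ZS97 and 0 and 0 in Nip (adjusted p of the difference between varieties 6.28e-05). Nip had the gene at 12.2 and 9.55 FPKM in root, against 377 and 272 FPKM in MH63, so that it was not without signal throughout that variety.

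Calls in opposite directions in a pair of varieties, with the difference itself called, were made for 18 genes (0.0753%), of which 13 (0.0544%) reached 10 FPKM in a group. In MH04g0591100, 1 of the 4 named, the replicates of each group lay close together. Young leaf held 27.2 and 19.2 FPKM in MH63, 18.3 and 18.3 in ZS97 and 0.417 and 0 in Nip, and panicle held 0 and 0 FPKM in MH63, 0 and 0.151 in ZS97 and 4.72 and 3.75 in Nip. The gene was thus higher in young leaf in MH63, where panicle was listed at 0, and in ZS97 (log2 fold change -4.17, SE 0.26) and higher in panicle in Nip (2.13, SE 0.26), and the difference was called (adjusted p = 7.37e-05). MH01g0571600 had panicle values of 8.40 and 8.45 FPKM in MH63, 0 and 2.21 in ZS97 and 19.3 and 16.8 in Nip and young leaf values of 35.99 and 13.05 FPKM in MH63, 30.7 and 14.2 in ZS97 and 1.23 and 0 in Nip (adjusted p of the difference 0.00683). MH07g0524200 had panicle values of 0.175 and 0.345 FPKM in MH63, 4.396 and 0.238 in ZS97 and 23.7 and 16.4 in Nip and young leaf values of 4.003 and 37.1 FPKM in MH63, 3.62 and 10.9 in ZS97 and 0.654 and 1.87 in Nip (adjusted p of the difference 0.0419). In both genes Nip was high in panicle and ZS97 or MH63 in young leaf, but replicates differed several-fold. MH03g0098400 had the largest spread among the genes with 10 FPKM in a group, yet its values changed between 0 and 15.3 FPKM from one MH63 young leaf library to the other (adjusted p of the difference 0.0407).

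Called genes were spread over all 12 chromosomes named in the identifiers. The share of tested genes called higher in young leaf ran from 13.9% on chromosome 12 to 16.7% on chromosome 10, and the share called higher in panicle from 5.69% on chromosome 10 to 10.6% on chromosome 3. Tested genes that follow each other in identifier order and were all called in 1 direction formed 43 runs of 4 or more in young leaf, with 189 genes (5.09% of the genes called higher there), and 9 such runs in panicle, with 38 genes (1.84%). Whether the genes of a run are similar copies that share reads was not tested, and no test was made of whether runs are more frequent than the share of called genes gives.

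The longest run lay on chromosome 2, from MH02g0073400 to MH02g0074100, with 8 genes higher in young leaf. Its first, second and last genes were higher in young leaf in each variety, and MH02g0073500 showed the largest change. Its young leaf values were 79.9 and 55.8 FPKM in MH63, 76.5 and 60.3 in ZS97 and 40.3 and 50.5 in Nip, and its panicle values were 1.16 and 0.479 FPKM in MH63, 1.30 and 0.986 in ZS97 and 0.106 and 0.309 in Nip (log2 fold change -5.17, SE 0.15, adjusted p = 1.25e-09). The 5 genes between them, MH02g0073600 to MH02g0074000, were low and separated the varieties. In young leaf they were at 3.40 to 12.04 FPKM in MH63 and 3.69 to 7.79 FPKM in ZS97, but at most 0.711 FPKM in Nip, and each was called in the test of the difference between varieties. Panicle was at most 0.424 FPKM for these genes in every library.

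A run of 5 genes on the same chromosome, from MH02g0484600 to MH02g0485100, divided the varieties throughout. MH02g0485000 was the most abundant of them. Its young leaf values were 163 and 92.5 FPKM in MH63, 217 and 188 in ZS97 and 0 and 0 in Nip, and it was at most 0.0663 FPKM in any panicle library (adjusted p of the difference between varieties 6.28e-05, limma). The gene was also high in mature leaf of MH63 and ZS97, at 484 and 556 FPKM and 434 and 449 FPKM, and listed at 0 in both Nip mature leaf libraries. MH02g0485100 followed it, with young leaf values of 126 and 68.9 FPKM in MH63, 163 and 139.9 in ZS97 and 0 and 0.385 in Nip and panicle values of 3.08 and 2.98 FPKM in MH63, 5.33 and 3.35 in ZS97 and 0 and 0 in Nip (adjusted p of the difference 0.00117). Over all 5 genes, 9 of 10 Nip young leaf values were listed at 0, whereas none of 10 was in MH63 or in ZS97.

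**Figure D5:**
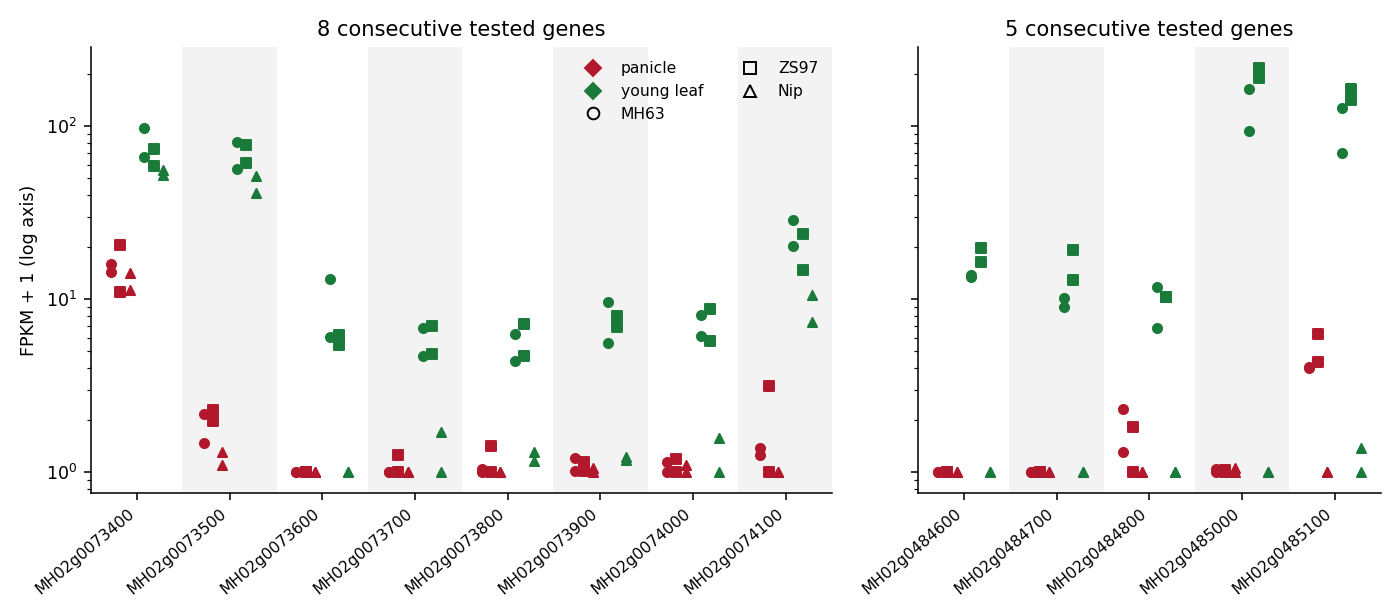
FPKM + 1 (vertical log axis) of the consecutive tested genes in 2 runs on chromosome 2 that were called higher in young leaf. Each symbol is 1 library, red for panicle and green for young leaf, shaped by variety. Nip young leaf (green triangles) is at most 0.711 FPKM for the 5 middle genes on the left and at most 0.385 FPKM for all genes on the right.

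On the panicle side, 1 of the 2 longest runs was of 5 genes on chromosome 3, from MH03g0218400 to MH03g0219100. MH03g0218700 changed most among them, with panicle values of 94.0 and 114 FPKM in MH63, 81.8 and 92.4 in ZS97 and 52.4 and 43.2 in Nip and young leaf values of 3.95 and 6.27 FPKM in MH63, 5.04 and 3.29 in ZS97 and 0.888 and 1.104 in Nip (log2 fold change 4.28, SE 0.15, adjusted p = 3.65e-09). MH03g0218600 had panicle values of 117 and 142 FPKM in MH63, 94.6 and 90.8 in ZS97 and 59.6 and 55.1 in Nip and young leaf values of 12.96 and 13.6 FPKM in MH63, 13.2 and 11.2 in ZS97 and 12.8 and 14.5 in Nip (log2 fold change 2.67, SE 0.18, adjusted p = 2.20e-07). The panicle values of both genes were lowest in Nip, and no gene of this run was called in the test of the difference between varieties. For MH03g0218600 the adjusted p of that test was 0.0270 and only the spread of the log2 fold changes, 1.19 (3.18 in MH63, 2.83 in ZS97 and 1.99 in Nip), fell short of the 1.5 required. MH07g0039100 and MH07g0039300, described above, stood in a run of 4 with MH07g0039200 and MH07g0039700, whose panicle values were lower, at 0.579 to 25.6 FPKM and 1.60 to 6.70 FPKM. MH07g0039700 was listed at 0 in all 6 young leaf libraries. MH07g0039200 was listed at 0 in 5 of them and at 1.23 FPKM in Nip young leaf replicate 2, above its lowest Nip panicle value, and was not called in Nip (log2 fold change 0.44, SE 0.55, adjusted p = 0.570). MH12g0344600 opened a run of 4 higher in young leaf, in which MH12g0344700 and MH12g0344800 were also listed at 0 in all 6 panicle libraries. The young leaf values of MH12g0344800 were 447 and 478 FPKM in MH63, 204 and 143 in ZS97 and 273 and 288 in Nip, and mature leaf held 1408 to 3082 FPKM.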

How the data were processed

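The RNA-Seq files of 24 libraries were used, and 34 libraries of 17 other varieties, listed by other identifiers, were not used here. The deposited values are FPKM. Per the methods, the authors trimmed reads with Trimmomatic, mapped them with TopHat2 to the MH63 or ZS97 reference and quantified genes with Cufflinks (2.2.5 in the submitters' processing notes, while the methods give another version). All 57174 genes of each file are listed by MH63 identifiers. The number of reads behind a value is unknown, so counting error cannot be given. Relative depth was estimated from the steps between values of 0.001 to 0.3 FPKM.

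Genes whose mean passed 1 FPKM in any of the 6 groups of variety and tissue were tested with limma (3.58.1, R 4.3.3; lmFit and eBayes with a trend, two-sided). The scale was log2(FPKM + 1), which understates the change of low genes. Variety was a block, and the interaction of variety and tissue was tested in the same libraries. Changes within a variety were contrasts in a fit of the 6 group means, with a variance shared by the varieties. A gene was called at a p of less than 0.05 after Benjamini-Hochberg adjustment over all genes tested and more than 1.5 of change in log2. Every adjusted p in the text is of these fits. Library measures were compared by exact permutation within varieties in Python 3.11.15, and the fits were tested on simulated data.

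Named are the 12 genes of largest log2 fold change in each direction (at least 10 FPKM, called in each variety, no overlap), the 5 of highest level in each tissue, the 5 most abundant steady genes, 4 of largest spread between varieties and 4 among those called in opposite directions, and 3 shown by the study. Runs were named for their length, for holding such a gene or after their values were seen. Members and lists were chosen with earlier results of these data known. Nothing in the labels says that replicates were separate plants, and p-values then measure the spread between these libraries, which may be technical. Alternatives were other pseudocounts, filters, scalings and fits, a replicate block and leaving out each library or variety.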

Additional observations from a re-analysis of the deposited data

Results flagged for a closer look

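One of 10 library measures, tested over the 6 libraries of a tissue, stood apart from the rest: ZS97 panicle replicate 1 listed 37055 genes at 0 and was the library of lowest depth. Chance puts about 1 in 20 such groups aside.

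The change from young leaf to panicle differed between the varieties by the interaction test for 21 genes named in the report, among them 4 of the 24 with the largest change. The spread is the difference between the largest and the smallest of the 3 changes on the log2(FPKM + 1) scale. It was 3.10 for MH12g0413500, 6.57 for MH05g0105700, 6.20 for MH01g0752900 and 2.78 for MH01g0805800. Some genes, such as MH05g0105700, MH01g0805800 and MH09g0150000, were listed at 0 in all 6 panicle libraries. For such genes the spread is that of the young leaf levels and depends on the pseudocount. The young leaf values of MH01g0752900 were 4229 and 2418 FPKM in MH63, 2929.6 and 2967 in ZS97 and 48.9 and 37.2 in Nip, and those of MH01g0805800 were 1366 and 1012 FPKM in MH63, 819 and 1084 in ZS97 and 144 and 202 in Nip, with Nip lowest in both. The genes chosen for their spread had 7.97 (MH08g0121600), 7.69 (MH02g0485000), 7.69 (MH09g0150000) and 8.34 (MH03g0098400), and those called in opposite directions 7.28 (MH01g0571600), 6.71 (MH07g0524200) and 6.71 (MH04g0591100).

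In the first run on chromosome 2 the spread was 3.15 for MH02g0073600, 2.11 for MH02g0073700, 2.06 for MH02g0073800, 2.55 for MH02g0073900 and 2.45 for MH02g0074000. In the second it was 4.17 for MH02g0484600, 3.98 for MH02g0484700, 2.93 for MH02g0484800 and 4.62 for MH02g0485100. MH12g0344700, in the run of MH12g0344600, had a spread of 2.98, with young leaf values of 4.17 and 10.7 FPKM in MH63, 1.42 and 0.604 in ZS97 and 14.8 and 14.2 in Nip. No cause of these differences was tested.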

How the results depend on the processing

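FPKM holds no counts, so the limits of detection of low genes cannot be given, and the low depth of Nip and of ZS97 panicle replicate 1 widens the error of low values most. The count of calls over 3 varieties was 5522 to 8217 under other settings. Leaving out 1 library at a time gave 5656 to 5863 calls over 3 varieties, 5787 to 6514 in MH63, 5534 to 6160 in ZS97, 5554 to 5942 in Nip and 3361 to 3586 in the same direction in all 3.

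The differences between varieties depended more on the settings. The F test called 1076 to 2022 genes with 1 library left out, 2821 with all 24 libraries in the fit and 281 with the replicate block. Nip against MH63 and ZS97 gave 1032 to 1643 with 1 library left out and 648 with the block. MH63 against ZS97 gave 193 to 562 with 1 library left out (562 without ZS97 panicle replicate 2), 163 with a mean above 5 FPKM required, 511 with all 24 libraries and 18 with the block. The block leaves fewer degrees of freedom. The causes of these differences in counts were not tested, and the part of the degrees of freedom was not tested either. Same-numbered libraries did not deviate together from their group means (correlation 0.0853 in MH63, -0.131 in ZS97 and -0.133 in Nip). These values gave no sign of pairing by replicate number, but they cannot show how the replicates were grown or handled. With the block, 5743 genes were called over 3 varieties, of which 5733 were called without it too, and the block moved no other count of calls by over 1.5 times. Genes called higher in panicle over 3 varieties numbered 3147 with a pseudocount of 0.1 and 3126 with equal FPKM sums, against 2060. Without Nip panicle replicate 1, the change was more positive in Nip for 705 genes, against 1067.

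The difference in genes above 1 FPKM was -1309 to -1014 with 1 library left out and -714 (exact permutation p = 0.0556) with equal FPKM sums, and that in the share of the 100 highest genes -6.57 to -5.00 percentage points. Of 672 values of the 28 named genes called over 3 varieties, 670 kept direction and call, and the other 2 were those of MH08g0121600 given in the report. A call was gained in 14 values of named genes not called, among them MH02g0167000 with a pseudocount of 0.1 (log2 difference -1.93). No value of a called gene and no gained call changed direction. For values that stayed uncalled, direction was not compared.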
